A study of Mus musculus with 39 samples.

Results

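The comparison was the genotype by injury interaction at 4 weeks post-crush (wpc), that is, whether the response of the sciatic nerve to a crush differed between mice with and without the leptin receptor in Schwann cells. For each mouse whose crushed and uncrushed nerves were both sequenced, the log2 of CPM (counts scaled to the size of the library) of the healthy nerve was subtracted from that of the injured nerve. At 4 wpc such pairs were present for 8 of the 22 mice of the series and comprised 16 of its 39 libraries. They were formed by 4 *Lepr*-ctrl mice (WT-170, WT-171, WT-173 and WT-178, as their samples are titled) and 4 *Lepr*-cKO mice (KO-169, KO-175, KO-176 and KO-177), and values per mouse are given below in this order.

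All mice were on a C57BL/6 background, were 2 to 4 months old and comprised both sexes. All carried floxed *Lepr* alleles. *Lepr*-ctrl mice had genotype *Lepr*fl/fl and *Lepr*-cKO mice genotype *Lepr*fl/fl::Dhh-Cre, in which Cre is expressed from *Dhh* regulatory sequences in cells of the Schwann cell lineage from the embryo onwards. The deletion removes exon 1 of *Lepr*, and a shortened transcript is still made, so that counts over the whole gene do not check the genotype. One sciatic nerve of each mouse was crushed at mid-femoral level, and the endoneurium distal to the crush was collected at 4 wpc together with that of the uncrushed nerve of the other side, called healthy. The mice of a group are separate animals. The tissue holds Schwann cells, axons, macrophages, fibroblasts and vessels, and in such bulk samples fewer cells of a type and less RNA per cell cannot be told apart.

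After a crush, Schwann cells leave their myelinating state, shut down myelin and lipid synthesis, help to clear the degenerating myelin and later wrap the regrown axons again. Peripheral myelin is very rich in cholesterol, most of which is made by the Schwann cells themselves, through a chain of enzymes whose genes are switched on together by the transcription factor SREBP2. The leptin receptor is a cytokine receptor that signals through Jak2 and Stat3, best known for the control of appetite in the hypothalamus.

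Total counts per library were 22717084 to 43521795 for the healthy nerves, 10905806 to 17640587 for injured *Lepr*-ctrl nerves and 15071347 to 25923752 for injured *Lepr*-cKO nerves. The injured library of *Lepr*-cKO mouse KO-169 stood apart from the other 7 injured libraries. Messenger RNA of the mitochondrial genome made up 2.79% of its counts. The share was 11.1%, 8.78% and 18.0% in the other injured *Lepr*-cKO nerves and 15% to 19.1% in injured *Lepr*-ctrl nerves. In healthy nerves the share was 1.64% to 1.95% in *Lepr*-ctrl and 1.98% to 3.61% in *Lepr*-cKO. The injured library of mouse KO-169 also held 72 counts of the Y-linked *Ddx3y* beside 13547 counts of *Xist*. The other libraries of female mice held 1 to 5 counts of *Ddx3y*. By these genes 3 *Lepr*-ctrl and 2 *Lepr*-cKO mice were female. Some values that moved with mouse KO-169 are given with and without it. Values given only with all mice can depend on it as well. Among these, the interaction of *Rnf144b* was -1.40 with all mice and -1.07 without mouse KO-169, and that of *St3gal5* 1.13 and 0.86. Schwann cell markers were abundant, with a summed level in *Lepr*-ctrl and *Lepr*-cKO of 41200 to 52500 CPM and 45200 to 57300 CPM in healthy nerves, and skeletal muscle was near absent, with at most 11 counts of *Ckm*, 6 of *Acta1* and 2 of each of 3 myosin heavy chain genes in any library.

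Of 16902 genes tested with edgeR's quasi-likelihood test in a fit with the mouse as a block, 1 gene (0.00592%) was called, which required a log2 fold change beyond 1 in either direction and a p under 0.05 after Benjamini-Hochberg adjustment over all genes. The called gene was *Hsd17b7* (ENSMUSG00000026675, chr1:169949535-169969241, minus strand, GRCm38), which encodes a 3-ketosteroid reductase of cholesterol synthesis. It fell after injury in both genotypes, by 4.13 on the log2 scale in *Lepr*-ctrl and by 2.91 in *Lepr*-cKO. Its interaction, the response of *Lepr*-cKO minus that of *Lepr*-ctrl, was 1.21 ± 0.14 (log2, standard error, n = 4 and 4 mice, edgeR adjusted p = 0.0359).

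The values behind this call were close within each group. In healthy nerves *Hsd17b7* was at 119.9, 138.3, 122 and 127.5 CPM in the 4 *Lepr*-ctrl mice and at 117, 127, 135.8 and 101 CPM in the 4 *Lepr*-cKO mice. In injured nerves it was at 6.62, 7.07, 8.30 and 7.0 CPM in *Lepr*-ctrl and at 14.8, 18.4, 18.8 and 12.3 CPM in *Lepr*-cKO. The healthy ranges of the genotypes overlapped, whereas all 4 injured *Lepr*-cKO nerves lay above all 4 injured *Lepr*-ctrl nerves. The paired differences were -4.16, -4.27, -3.86 and -4.17 in *Lepr*-ctrl and -2.98, -2.78, -2.84 and -3.02 in *Lepr*-cKO (log2 CPM), which gave p = 0.0286 in an exact two-sided permutation of the mice, the least that 4 against 4 can give. Every gene without overlap between the genotypes reaches this permutation p. As *Hsd17b7* was picked from these same values, the permutation adds no separate support. The call was lost when any 1 of 7 mice was left out, with edgeR adjusted p of 0.0609 to 0.355, and was retained without *Lepr*-cKO mouse KO-177 (0.0174). Under these omissions the interaction itself was 1.16 to 1.31.

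**Figure D1:**
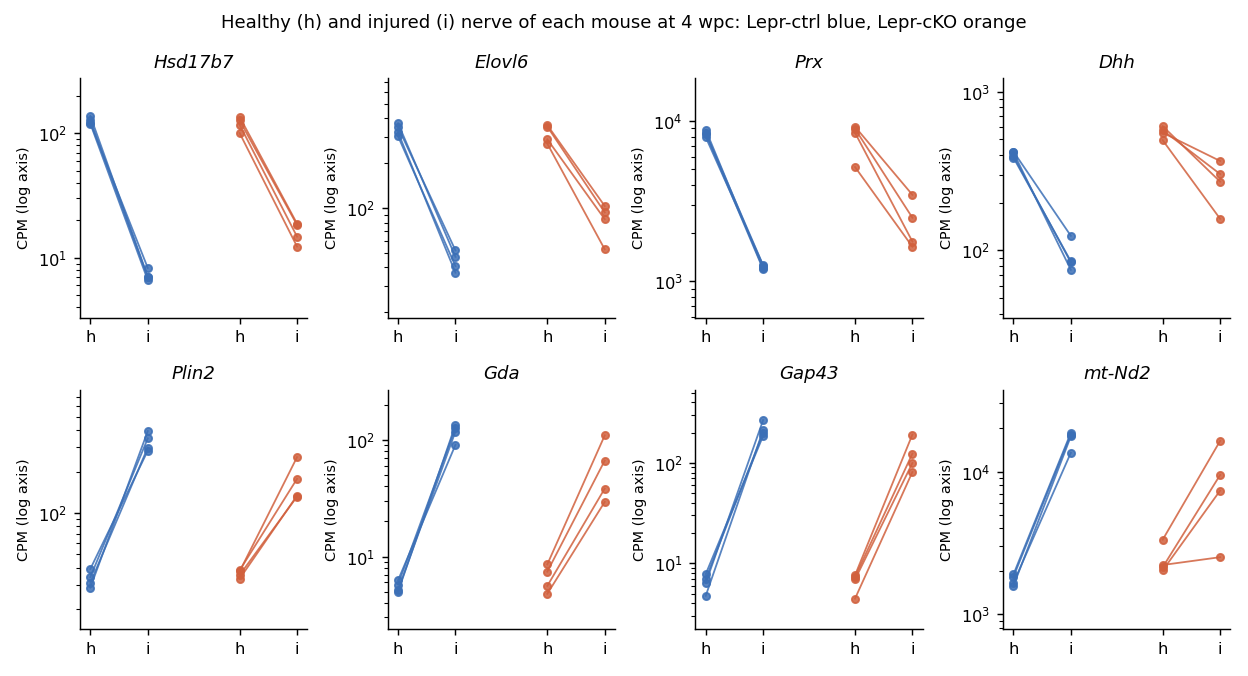
CPM (log axis) of 8 genes in the healthy (h) and injured (i) nerve of each mouse at 4 wpc, with 1 line per mouse, *Lepr*-ctrl in blue and *Lepr*-cKO in orange. For *Hsd17b7* the lines start at like levels and the 4 orange lines end above the 4 blue lines, while for *mt-Nd2* the orange lines end lower and further apart.

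The next smallest edgeR adjusted p was 0.197. At an unadjusted p under 0.05 stood 2332 genes, 1304 with a higher (7.72%) and 1028 with a lower (6.08%) response in *Lepr*-cKO. The paired differences of the 2 genotypes did not overlap for 789 genes in the higher (4.67%) and for 496 genes in the lower direction (2.93%). These shares over all tested genes are the background for the counts of gene groups below, but they differed with summed exon length. At an unadjusted p under 0.05 stood 207 higher and 403 lower of 5634 genes in the tercile with the shortest exon length. In the longest tercile, of 5632 genes, 651 stood higher and 292 lower. Median interactions of these terciles were -0.05 and 0.08. Lists were not matched for length, and the part of length in their values was not tested. DESeq2 in the same design called 82 of 33424 genes with any count, 26 higher and 56 lower, and edgeR without mouse KO-177 called 215. Except for *Hsd17b7*, the differences between the genotypes given below did not pass the edgeR test and are given as values. Of 76 genes whose values were followed over all alternatives, DESeq2 called 25, 7 higher and 18 lower. Many of the 76 had been taken for a small unadjusted p in these same data, so a high share of calls was built in. Beside *Hsd17b7*, the smallest DESeq2 adjusted p among the 76 were 0.000371 for *Cdo1*, 0.00136 for *Gda*, 0.0014 for *Cdkn1c* and *Sdk1*, 0.00232 for *mt-Nd2*, 0.00246 for *Plin2* and *mt-Nd6* and 0.00256 for *Dhh*.

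Injury itself changed a large part of the transcriptome in each genotype. In *Lepr*-ctrl 6129 genes (36.3%) were called, 3330 up and 2799 down, and in *Lepr*-cKO 4518 (26.7%), 2676 up and 1842 down. The calls shared 4079 genes, which are 66.6% of those in *Lepr*-ctrl and 90.3% of those in *Lepr*-cKO, and all 4079 had the same direction in both genotypes. The response in *Lepr*-cKO had the same direction as in *Lepr*-ctrl but was smaller for 1965 of the 2332 genes (84.3%), larger for 102 and opposite for 265. Among all tested genes it was smaller for 10764 (63.7%). Without mouse KO-169, 1597 genes stood at an unadjusted p under 0.05 and 83.5% of them had the smaller response. Without mouse KO-177 the numbers were 3537 and 68.3%.

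The same could be seen in genes selected in other mice. A list of 2958 genes that rose after crush at 2 wpc in *Lepr*-ctrl mice had mean paired differences at 4 wpc of 2.04, 2.35, 1.94 and 1.94 in *Lepr*-ctrl and 1.72, 1.97, 1.87 and 1.67 in *Lepr*-cKO (log2 CPM per mouse). The 2483 genes that fell at 2 wpc were at -1.60, -1.66, -1.55 and -1.70 in *Lepr*-ctrl and at -1.22, -1.58, -1.27 and -1.34 in *Lepr*-cKO. Both lists lay nearer to 0 on average in *Lepr*-cKO, but mouse WT-173 among the controls and mouse KO-175 among the mutants fell within the range of the other genotype in both lists, and mouse WT-178 in the first. Over all tested genes the median interaction was 0.03.

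**Figure D2:**
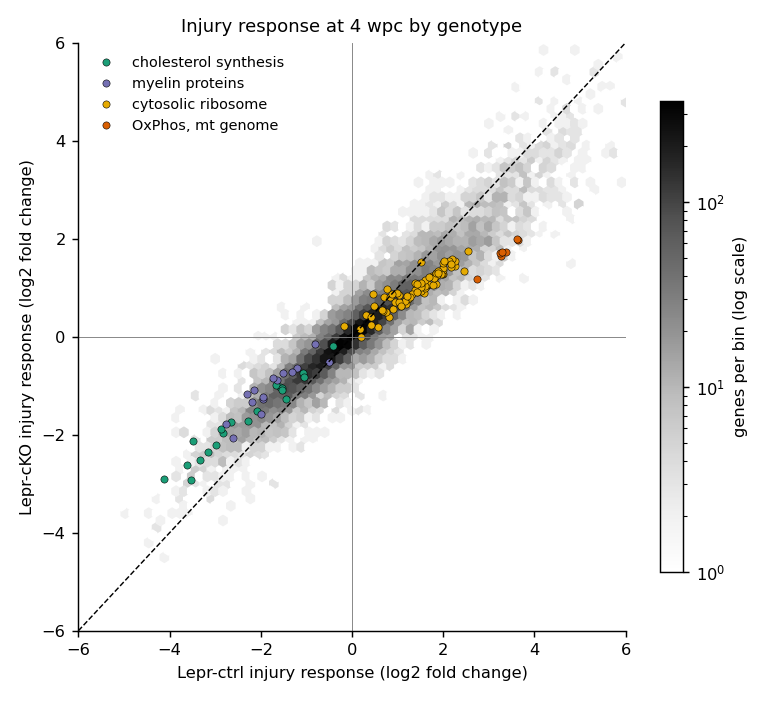
Injury response at 4 wpc in *Lepr*-ctrl (horizontal axis) and *Lepr*-cKO (vertical axis), both as edgeR log2 fold changes, with grey bins for the number of genes and coloured points for 4 gene lists; 146 genes lie outside the drawn range of -6 to 6. Most cholesterol synthesis and myelin genes lie in the lower left and above the dashed line of equal response, and mitochondrially encoded genes lie in the upper right and below it.

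Since the called gene belongs to cholesterol synthesis, the promoters of that pathway are shown first. Each of the 150-base windows ends at the base before the annotated start (RefSeq, GRCm38.p6, 5′ to 3′ on the strand of the gene). The genes were taken for a small unadjusted p of the interaction among list members with a promoter sequence available. *Hsd17b7* is the called gene, *Lss* and *Hmgcs1* encode an enzyme of the sterol and of the mevalonate branch, and *Srebf2* is the gene of their common regulator. Capitals mark the CCAAT box, which here reads ATTGG because it lies on the opposite strand, and in *Hmgcs1* also the match to the sterol regulatory element, searched for as TCACNCCAC.
Hsd17b7, chr1:169969206-169969355, minus strand: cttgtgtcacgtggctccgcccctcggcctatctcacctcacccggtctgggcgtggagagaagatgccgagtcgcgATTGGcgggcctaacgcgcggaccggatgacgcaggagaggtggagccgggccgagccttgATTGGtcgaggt
Lss, chr10:76531455-76531604, plus strand: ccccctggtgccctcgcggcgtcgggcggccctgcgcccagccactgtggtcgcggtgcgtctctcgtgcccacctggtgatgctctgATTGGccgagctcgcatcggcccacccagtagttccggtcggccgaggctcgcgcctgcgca
Hmgcs1, chr13:119690201-119690350, plus strand: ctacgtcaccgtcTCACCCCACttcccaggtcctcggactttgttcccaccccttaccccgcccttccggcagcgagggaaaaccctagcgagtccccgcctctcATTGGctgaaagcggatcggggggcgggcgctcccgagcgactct
Srebf2, chr15:82147119-82147268, plus strand: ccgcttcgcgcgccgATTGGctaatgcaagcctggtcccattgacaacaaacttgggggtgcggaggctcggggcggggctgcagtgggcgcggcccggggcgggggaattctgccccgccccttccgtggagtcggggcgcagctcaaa
The CCAAT box, a common element bound by the factor NF-Y, began 12 and 73 bases before the start in *Hsd17b7*, 62 in *Lss* and 45 in *Hmgcs1*, and lay near the far end of the window in *Srebf2*. Within 250 bases before the start and on either strand, CCAAT was present in 16 of the 17 list members with a promoter in the table (94.1%) and in 10133 of 27025 genes (37.5%). The share was 54.5% for myelin proteins, 53.3% for fatty acid and sphingolipid synthesis, 31.2% for nuclear-encoded subunits of complex I and 29.8% for cytosolic ribosomal proteins. The GC box GGGCGG was present in 94.1% of the cholesterol promoters and 35.4% of all, as well as in 72.7% of those of myelin proteins, 60.0% of fatty acid and sphingolipid synthesis, 49.1% of cytosolic ribosomal proteins and 43.8% of complex I. TCACNCCAC was present in 1 of 17 (5.88%) and 1.22% of all. These are matches of letters and were not tested for binding.

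All 23 genes of the cholesterol synthesis list had a higher value in *Lepr*-cKO, with a median interaction of 0.78. Of the 23, 1 was called, 17 stood at an unadjusted p under 0.05 and 14 had no overlap between the genotypes. In *Lepr*-ctrl injury lowered 22 of them past the threshold and in *Lepr*-cKO 19. The mean paired difference over the list was -2.46, -2.40, -2.39 and -2.96 in *Lepr*-ctrl and -1.73, -1.75, -1.69 and -2.04 in *Lepr*-cKO (log2 CPM per mouse). All 4 *Lepr*-cKO mice thus lay nearer to 0 than all 4 *Lepr*-ctrl mice. The healthy nerves differed by 0.02 and the injured nerves by 0.77 between the genotypes (log2, *Lepr*-cKO minus *Lepr*-ctrl). The summed level of the list in injured nerves was 434 to 725 CPM in *Lepr*-ctrl and 795 to 1240 CPM in *Lepr*-cKO, against 3870 to 4760 and 3990 to 4880 CPM in healthy nerves. Leaving out single mice gave medians of 0.65 to 0.82.

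Along the pathway, the enzymes that make mevalonate included *Acat2*, with an interaction of 0.23, and *Hmgcs1*, with 0.98 ± 0.23. Mevalonate is then turned into isoprenoid units and farnesyl diphosphate by the products of *Mvk* (0.33), *Pmvk* (0.19), *Mvd* (0.45), *Idi1* (1.36) and *Fdps* (0.56). Squalene is formed by *Fdft1* (0.87), oxidized by *Sqle* (0.99) and closed to lanosterol by *Lss* (0.81).

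Lanosterol is converted to cholesterol by enzymes encoded by *Cyp51* (0.91), *Tm7sf2* (0.68), *Msmo1* (0.57), *Nsdhl* (0.55), *Hsd17b7* (1.21), *Ebp* (0.23), *Sc5d* (0.60) and *Dhcr7* (0.49). The genes around the pathway had like values, with 0.78 for *Srebf2* and 0.80 for *Insig1*, whose product holds SREBP back in the endoplasmic reticulum.

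**Figure D3:**
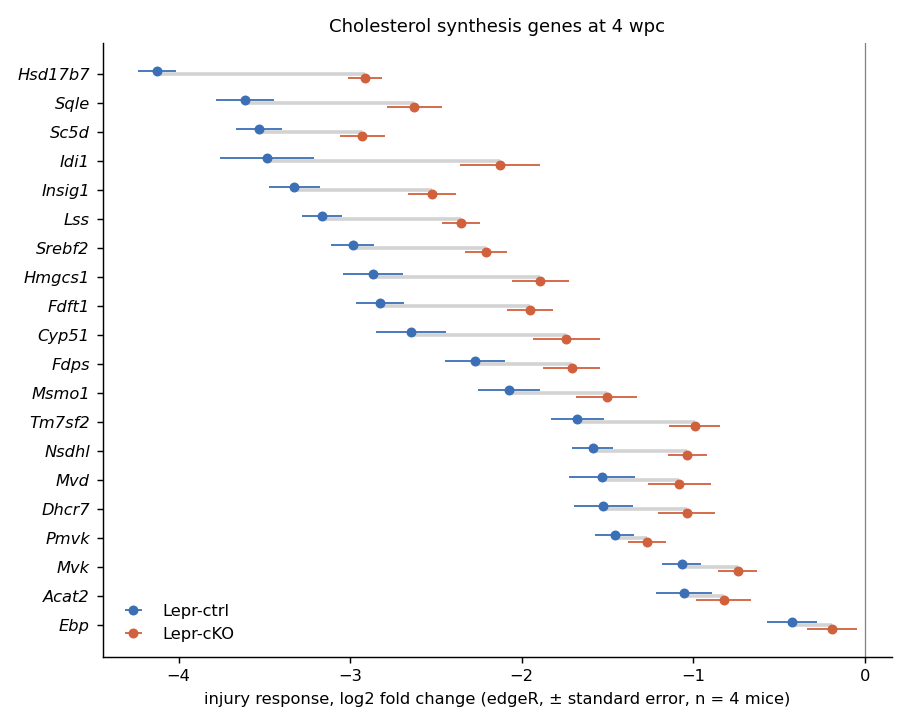
Injury response at 4 wpc of 20 cholesterol synthesis genes (edgeR log2 fold change ± standard error, n = 4 mice per genotype), *Lepr*-ctrl in blue and *Lepr*-cKO in orange. Each orange point lies to the right of its blue point, with a distance of 1.21 for *Hsd17b7*.

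Genes of fatty acid and sphingolipid synthesis, the other lipid classes of myelin, showed the same direction in 18 of 19 members, with a median interaction of 0.53, 12 at an unadjusted p under 0.05 and 8 without overlap. Mean paired differences were -1.26, -1.26, -1.22 and -1.49 in *Lepr*-ctrl and -0.40, -1.06, -0.73 and -0.98 in *Lepr*-cKO, and the groups did not overlap. The median was 0.47 without mouse KO-169. *Elovl6*, a fatty acid elongase, had paired differences of -2.89, -2.97, -2.75 and -3.12 in *Lepr*-ctrl and -1.78, -1.91, -1.80 and -2.35 in *Lepr*-cKO (interaction 0.97 ± 0.16, edgeR adjusted p = 0.197). *Fa2h*, which hydroxylates the fatty acids of myelin sphingolipids, had an interaction of 0.77 ± 0.18, with -1.85, -1.43, -1.80 and -1.89 in *Lepr*-ctrl and -0.82, -1.06, -0.75 and -1.27 in *Lepr*-cKO. Both genes lay nearer to 0 in every *Lepr*-cKO mouse than in any *Lepr*-ctrl mouse. They were taken for the smallest unadjusted p of the list in these same mice, so this adds no support. *Elovl6* overlaps the annotated gene *Gm35986*.

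Of 17 genes for myelin proteins and their partners, 16 had a higher value in *Lepr*-cKO, with a median interaction of 0.72, 14 at an unadjusted p under 0.05 and 10 without overlap. The mean paired difference was -1.67, -1.64, -1.48 and -1.99 in *Lepr*-ctrl and -0.74, -1.14, -0.80 and -1.29 in *Lepr*-cKO, with no overlap. Injury lowered 14 of the 17 past the threshold in *Lepr*-ctrl and 8 in *Lepr*-cKO. The summed level of the list in injured nerves was 30500 to 40000 CPM in *Lepr*-ctrl and 36500 to 84300 CPM in *Lepr*-cKO.

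Periaxin (*Prx*), a scaffold protein of the Schwann cell membrane, was at 1260.0, 1188, 1254 and 1203 CPM in injured *Lepr*-ctrl nerves and at 3464, 1770.4, 2493 and 1643 CPM in injured *Lepr*-cKO nerves. Its paired differences were -2.75, -2.81, -2.66 and -2.87 against -1.41, -2.25, -1.84 and -1.65 (interaction 0.98 ± 0.26, edgeR adjusted p = 0.200), without overlap. Interactions of compact myelin genes are given in brackets, namely *Mbp* (0.85), *Pmp22* (0.61), *Pmp2* (1.13) and *Mal* (0.72). For genes of the non-compact myelin, junctions and signalling they were *Mag* (0.76), *Cnp* (0.89), *Gjb1* (0.66), *Cldn19* (0.74), *Mpdz* (0.42), *Drp2* (0.55), *Ncmap* (0.67), *Cd9* (0.57) and *Plekha4* (-0.01).

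*Dhh*, the Schwann cell hedgehog ligand that acts on the perineurium, needs separate mention because its regulatory sequences also drive the Cre transgene. Its interaction was 1.08 ± 0.23 (edgeR adjusted p = 0.197), with paired differences of -2.17, -2.23, -1.76 and -2.46 in *Lepr*-ctrl and -0.59, -1.16, -0.92 and -1.64 in *Lepr*-cKO. Unlike for *Hsd17b7*, the healthy nerves of the genotypes already did not overlap, at 385 to 419.9 CPM in *Lepr*-ctrl and 495 to 606 CPM in *Lepr*-cKO. Whether counts from the transgene contribute to it was not tested. *Dhh* also overlaps *Rhebl1* and *Gm49442*, and *Prx* overlaps *Gm15541*.

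Transcription factors of the myelinating Schwann cell were less uniform, with 7 of 10 higher, a median interaction of 0.51 and 5 at an unadjusted p under 0.05, none without overlap. *Sox10*, the lineage factor of Schwann cells, had paired differences of -1.40, -1.59, -1.65 and -1.98 in *Lepr*-ctrl and -0.09, -1.25, -0.97 and -1.47 in *Lepr*-cKO. *Egr2*, which drives the myelin genes, had -2.09, -1.61, -1.34 and -1.88 against -1.15, -1.0, -0.64 and -1.70. *Pou3f1*, a factor of the promyelinating stage, had 0.20, -0.21, -0.13 and -0.74 against 1.52, 0.90, 1.05 and -0.60. Their interactions of 0.71 ± 0.28, 0.61 ± 0.23 and 0.96 ± 0.38 had edgeR adjusted p of 0.306, 0.301 and 0.311. Without mouse KO-169 the interactions were 0.42, 0.61 and 0.68. In each of these 3 genes mouse KO-177 lay within the range of the controls and the other 3 *Lepr*-cKO mice above it. The other factors had interactions of *Pou3f2* (0.91), *Tead1* (0.67), *Nab2* (0.42), *Yy1* (0.08), *Nfatc4* (-0.22), *Zeb2* (-0.33) and *Nab1* (-0.43). The 8 Schwann cell markers were higher in all 8 cases, with a median of 0.57 that was 0.32 without mouse KO-169, and their summed level in injured nerves was 13300 to 18400 CPM in *Lepr*-ctrl and 16400 to 45900 CPM in *Lepr*-cKO. The part of this level in the values of the lipid and myelin genes was not tested.

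**Figure D4:**
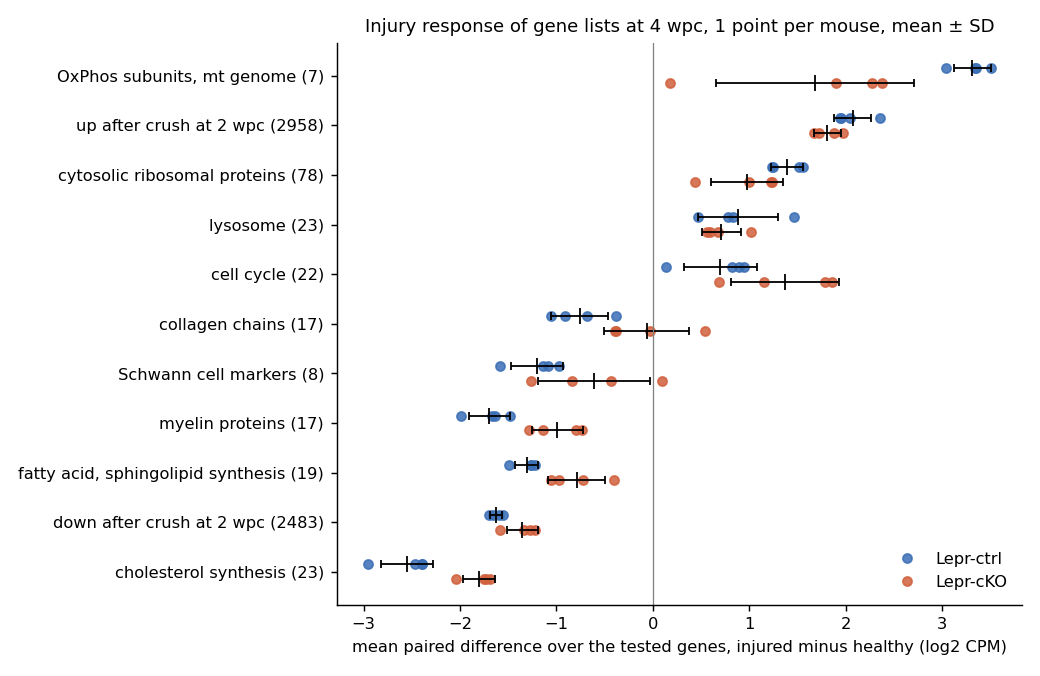
Mean paired difference, injured minus healthy (log2 CPM), over the tested genes of 11 lists (number of genes in brackets), with 1 point per mouse and the mean ± SD of 4 mice, *Lepr*-ctrl in blue and *Lepr*-cKO in orange. The groups are apart for cholesterol synthesis, fatty acid synthesis, myelin proteins and mitochondrially encoded subunits, where 1 *Lepr*-cKO mouse lies at 0.18. For cytosolic ribosomal proteins they almost touch, at 1.238 in the lowest *Lepr*-ctrl and 1.235 in the highest *Lepr*-cKO mouse.

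Repair Schwann cell genes, those that Schwann cells switch on after injury to support axon growth, were higher in 17 and lower in 3 cases, with 2 and 1 at an unadjusted p under 0.05. The median interaction of the 20 tested genes was 0.50 with all mice and 0.10 without mouse KO-169. *Jun*, their main regulator, had paired differences of 0.69, 1.04, 0.72 and 0.84 in *Lepr*-ctrl and 1.59, 0.71, 0.99 and 0.55 in *Lepr*-cKO (interaction 0.14 ± 0.21, -0.08 without mouse KO-169). *Shh* had 0.32 ± 0.44, and likewise -0.08 without mouse KO-169. *Gap43*, a growth-associated protein, went the other way, with 5.37, 5.45, 4.55 and 4.81 in *Lepr*-ctrl and 4.06, 3.83, 4.16 and 4.64 in *Lepr*-cKO (interaction -0.86 ± 0.23, edgeR adjusted p = 0.208). *Egfl8*, an injury-induced secreted factor, had an interaction of 0.77 ± 0.31.

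Collagen chain genes were higher in all 17 of 17 cases, with a median interaction of 0.68 (0.48 without mouse KO-169), 11 at an unadjusted p under 0.05 and 3 without overlap. *Col14a1*, a fibril-associated collagen, had paired differences of -2.69, -2.14, -2.31 and -3.02 in *Lepr*-ctrl and -1.05, -1.89, -1.64 and -1.13 in *Lepr*-cKO (interaction 1.11 ± 0.24, edgeR adjusted p = 0.197). *Col4a2*, a basement membrane chain, had 0.79 ± 0.24. Cell cycle genes were higher in 19 of 22 cases, with a median of 0.67 (0.46 without mouse KO-169), but 4 stood at an unadjusted p under 0.05. *Top2a*, a topoisomerase of dividing cells, had paired differences of 1.69, 1.46, 1.45 and -0.28 in *Lepr*-ctrl and 3.27, 2.76, 2.22 and 1.94 in *Lepr*-cKO (interaction 1.5 ± 0.46). The proliferation marker *Mki67* had 0.81, 1.08, 1.48 and -0.63 against 3.07, 1.79, 2.03 and 1.32, with overlap of the groups (interaction 1.35 ± 0.49, 1.0 without mouse KO-169).

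The opposite direction was seen for subunits of oxidative phosphorylation (OxPhos) encoded in the mitochondrial genome. Of 13 such genes 7 were tested, and all 7 were lower in *Lepr*-cKO, with a median interaction of -1.62, an unadjusted p under 0.05 and no overlap for each. The remaining 6 had at most 2 counts in any library. The 7 genes share 1 small genome and are not independent of each other. Their mean paired difference was 3.34, 3.35, 3.04 and 3.51 in *Lepr*-ctrl and 0.18, 2.27, 1.90 and 2.38 in *Lepr*-cKO (log2 CPM). Mouse KO-169 hardly differed between its nerves, and the other 3 *Lepr*-cKO mice lay between it and the *Lepr*-ctrl mice. The median interaction was -1.13 without mouse KO-169 and -1.84 without mouse KO-177. Over the 7 genes the genotypes differed by 0.43 in healthy and -1.20 in injured nerves (log2, mean, *Lepr*-cKO minus *Lepr*-ctrl). Part of the difference in response thus lay in the healthy nerves. The summed level in the injured nerve of mouse KO-177, 176200 CPM, was within the 145300 to 199300 CPM of injured *Lepr*-ctrl nerves.

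For *mt-Nd2*, a complex I subunit, injured nerves held 18154, 18663, 13518 and 17613 CPM in *Lepr*-ctrl and 2514, 9457, 7351 and 16376 CPM in *Lepr*-cKO. Injured mouse KO-177 was within the range of the controls, and mouse KO-169 was at the level of healthy nerves, which held 1582 to 1902 CPM in *Lepr*-ctrl and 2032 to 3333 CPM in *Lepr*-cKO. *mt-Nd6* had the smallest unadjusted p of the 7, with an interaction of -1.66 ± 0.43 (edgeR adjusted p = 0.200). *mt-Co1*, a catalytic subunit of complex IV, had -1.57 ± 0.51 (edgeR adjusted p = 0.237). Without mouse KO-169 the interactions were -1.19 for *mt-Nd2*, -1.21 for *mt-Nd6* and -1.09 for *mt-Co1*.

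Nuclear-encoded OxPhos genes had interactions much nearer to 0. The median was -0.15 for complex I (29 of 36 lower, 3 of them at an unadjusted p under 0.05), -0.25 for complexes II to IV (26 of 29 lower, 2) and -0.22 for complex V (11 of 15 lower, 1). Without mouse KO-169 these medians were -0.11, -0.16 and -0.17. Among the members with the smallest p, *Ndufb6* of complex I had paired differences of 0.91, 0.84, 0.62 and 0.48 in *Lepr*-ctrl and 0.34, 0.31, 0.17 and 0.30 in *Lepr*-cKO. *Uqcrb* of complex III had 1.27, 1.42, 1.42 and 1.01 against 0.57, 1.02, 1.05 and 0.68. The citric acid cycle had a median of 0.00, fatty acid oxidation 0.05, glycolysis and lactate transport -0.06, and mitochondrial transcription, replication and biogenesis 0.09. *Suclg2*, a subunit of succinate-CoA ligase, had paired differences of 0.29, 0.39, 0.07 and 0.22 in *Lepr*-ctrl and -0.35, -0.27, -0.33 and -0.18 in *Lepr*-cKO, that is, above 0 in all 4 controls and below 0 in all 4 mutants (interaction -0.53 ± 0.17, edgeR adjusted p = 0.233).

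Cytosolic ribosomal protein genes were lower in 70 of 78 cases, with a median interaction of -0.47 (-0.29 without mouse KO-169), 35 at an unadjusted p under 0.05 and 9 without overlap. Their mean paired difference was 1.51, 1.56, 1.24 and 1.25 in *Lepr*-ctrl and 0.44, 1.24, 1.0 and 1.22 in *Lepr*-cKO, so that mouse KO-169 lay farthest from the controls and mice KO-175 and KO-177 at or next to their lower end. *Rpl39* and *Rps28* had interactions of -1.10 ± 0.28 (-0.82 without mouse KO-169) and -0.80 ± 0.23. Many ribosomal protein genes have near-identical pseudogene copies, which makes their counts uncertain. Mitochondrial ribosomal proteins had a median of -0.10 (-0.05 without mouse KO-169), with 45 of 64 lower and 1 at an unadjusted p under 0.05.

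Genes of myelin breakdown were divided into autophagy and lysosome lists. The autophagy list had a median interaction of -0.07, with 10 genes higher and 14 lower. Of these, 1 higher and 2 lower stood at an unadjusted p under 0.05, and 2 and 2 had no overlap. *Atg5* and *Gabarap*, given below, are its members with the smallest p. The lysosome list had -0.16, which was -0.38 without mouse WT-170 and -0.01 without mouse WT-171. Its paired differences differed between the genotypes by -0.18 with the mean over the 23 genes and by -0.39 with the median over them (log2). *Atg5*, needed to form autophagosomes, rose in both genotypes, with paired differences of 0.98, 1.11, 0.95 and 1.10 in *Lepr*-ctrl and 0.31, 0.50, 0.45 and 0.66 in *Lepr*-cKO and no overlap (interaction -0.56 ± 0.14, edgeR adjusted p = 0.200). *Gabarap*, an autophagosome membrane protein, had 1.21, 1.32, 0.97 and 1.12 against 0.39, 0.70, 0.50 and 0.97. *Ctsl*, a lysosomal protease, had 1.63, 2.81, 1.52 and 1.73 in *Lepr*-ctrl, where mouse WT-171 stood far above the other 3, and 1.72, 0.86, 0.93 and 1.18 in *Lepr*-cKO.

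Further genes were taken by rank, up to 12 per direction with the smallest unadjusted p among genes with a mean log2 CPM above 1, an absolute interaction above 1 and no overlap. Since this rule uses the differences themselves, these genes are a description. Beside *Hsd17b7*, *Dhh* and *Col14a1*, those with a higher value in *Lepr*-cKO were *Atp10b* (1.63), *Ptprt* (1.34), *Btbd17* (1.27), *Amigo3* (1.19), *Sdk1* (1.15), *St3gal5* (1.13) and *Magix* (1.08). *St3gal5*, which makes the ganglioside GM3, had paired differences of -1.48, -1.79, -1.61 and -1.65 in *Lepr*-ctrl and 0.22, -0.78, -0.86 and -0.65 in *Lepr*-cKO. *Sdk1*, a cell adhesion molecule, had -3.16, -2.83, -3.07 and -3.41 against -1.34, -2.38, -2.10 and -2.07. The *Lepr*-cKO mice lay nearer to 0 in these genes, which follows from taking genes without overlap and adds no support. *Ptprt*, a receptor phosphatase, had -3.91, -4.57, -4.10 and -5.04 against -2.42, -3.69, -3.09 and -3.05. All 12 genes of this direction, of which 10 are named here, fell past the threshold in *Lepr*-ctrl.

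Of the 12 genes with a lower value in *Lepr*-cKO, 10 rose in *Lepr*-ctrl, namely *Cdo1* (-2.10), *Rnf144b* (-1.40), *Gda* (-1.32), *Cdkn1c* (-1.30), *Sh3bgrl2* (-1.24), *Net1* (-1.20), *Mylk* (-1.12), *Plin2* (-1.10), *A4galt* (-1.10) and *S100a1* (-1.03). *Plin2*, the coat protein of lipid droplets, was at 395, 349, 284 and 299.6 CPM in injured *Lepr*-ctrl nerves and at 131.5, 177.1, 134 and 255 CPM in injured *Lepr*-cKO nerves. Its paired differences were 3.78, 3.35, 2.86 and 3.27 against 1.90, 2.21, 2.01 and 2.76 (interaction -1.10 ± 0.23, edgeR adjusted p = 0.197). *Gda*, guanine deaminase, had 4.44, 4.49, 3.84 and 4.73 in *Lepr*-ctrl and 2.60, 3.15, 2.75 and 3.66 in *Lepr*-cKO. That every *Lepr*-cKO mouse lay nearer to its healthy nerve than any *Lepr*-ctrl mouse again follows from the selection rule. *Cdkn1c*, a cyclin-dependent kinase inhibitor, had 2.29, 3.02, 1.83 and 2.49 against 0.67, 1.55, 1.08 and 1.12, and overlaps the annotated gene *Gm44732*. *Cdo1*, cysteine dioxygenase, had 4.49, 5.57, 5.25 and 5.55 against 2.53, 2.17, 3.90 and 3.95. For *Cdo1* the genotypes differed by 0.95 in healthy and -1.13 in injured nerves (log2, *Lepr*-cKO minus *Lepr*-ctrl), and for *A4galt* by 0.61 and -0.49. Part of these 2 differences in response thus lay in the healthy nerves. The healthy and injured values were 0.22 and -1.12 for *Gda* and 0.14 and -1.16 for *Cdkn1c*.

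The remaining 2 did not follow this pattern. *Map7d2*, a microtubule-associated protein, had paired differences of 0.63, 0.55, -0.09 and 0.30 in *Lepr*-ctrl and -1.42, -1.58, -1.63 and -0.92 in *Lepr*-cKO, where it fell past the threshold, and its CPM was 2.58 to 5.57 in injured *Lepr*-ctrl and 0.823 to 1.36 in injured *Lepr*-cKO nerves. *Unc13c*, of a family of vesicle priming factors, had -0.89, -0.43, -0.90 and -0.88 in *Lepr*-ctrl and -2.71, -1.98, -1.69 and -2.04 in *Lepr*-cKO, the larger decline being in the mutants.

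*Lepr* itself rose after injury in both genotypes. In healthy nerves it was at 7.27, 7.0, 5.80 and 6.14 CPM in *Lepr*-ctrl and 9.08, 6.04, 6.27 and 10.9 CPM in *Lepr*-cKO, and in injured nerves at 71.6, 38.2, 20.6 and 47.0 CPM against 30.4, 29.8, 23.7 and 36.5 CPM. Its paired differences were 3.28, 2.43, 1.81 and 2.92 in *Lepr*-ctrl and 1.73, 2.29, 1.90 and 1.74 in *Lepr*-cKO, with overlap (interaction -0.70 ± 0.28, edgeR adjusted p = 0.321). The 16 tested genes of leptin receptor signalling had a median interaction of 0.10 (-0.03 without mouse KO-169), with 0 higher and 2 lower at an unadjusted p under 0.05, these being *Lepr* and the adaptor *Grb2* (-0.46). *Stat3* had 0.07 ± 0.16, a value that turned to -0.05 without *Lepr*-ctrl mouse WT-173 and to just under 0 without mouse KO-169. The genes for trafficking of the receptor had 0.33 ± 0.24 (*Leprot*, 0.08 without mouse KO-169) and 0.26 ± 0.12 (*Rnf41*). Leptin (*Lep*), an adipocyte hormone, reached 95 counts in its highest library and had an interaction of -2.82 ± 2.52.

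Markers of other cells moved with parts of the response. Macrophage markers summed to 4790 to 9030 CPM in injured *Lepr*-ctrl and 2670 to 4770 CPM in injured *Lepr*-cKO nerves, without overlap, but healthy nerves also held 327 to 567 and 275 to 421 CPM, and the median interaction of the 15 markers was -0.04. It was -0.34 without mouse WT-170 and 0.22 without mouse WT-171. *Lgals3*, a lectin of activated macrophages, had the smallest p among them, at -0.97 ± 0.25 (edgeR adjusted p = 0.200). Endothelial and mural markers had a median of -0.53, with 5 lower and 1 higher at an unadjusted p under 0.05, among the lower ones the junction protein gene *Cldn5* (-1.10 ± 0.35, -0.74 without mouse KO-169) and *Emcn* (-0.93 ± 0.27). Over this list the genotypes differed by 0.30 in healthy and -0.05 in injured nerves (log2, mean, *Lepr*-cKO minus *Lepr*-ctrl). The mean difference in response thus lay mostly in the healthy nerves. For *Cldn5* the healthy and injured values were 0.60 and -0.51, and for *Emcn* 0.42 and -0.51. Fibroblast markers had a median interaction of -0.24, which was -0.52 without mouse KO-169 and 0.13 without *Lepr*-ctrl mouse WT-171.

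Markers of tissue around the endoneurium varied widely between single mice. Perineurial markers had mean paired differences of 1.99, 2.95, 3.41 and 3.20 in *Lepr*-ctrl and 1.89, 3.0, 2.28 and -0.31 in *Lepr*-cKO. This mean over 7 genes included members with few counts in their lowest library, *Lypd2* with 0, *Krt19* with 1 and *Msln* with 3. The summed level instead was lower in the injured nerve of all 8 mice, at 930.0 to 1080 CPM in healthy and 550.0 to 647 CPM in injured *Lepr*-ctrl nerves and at 1040 to 1250 and 537 to 953 CPM in *Lepr*-cKO. *Itgb4*, an integrin subunit and the most abundant marker of the list, fell in both genotypes, by 1.84 in *Lepr*-ctrl and by 1.26 in *Lepr*-cKO (log2). Adipocyte markers had 5.45, 6.08, 0.75 and 1.12 against 4.17, -3.78, 3.79 and 3.67, with sums of up to 586 CPM in injured *Lepr*-ctrl and up to 558 CPM in injured *Lepr*-cKO nerves. Neither list separated the genotypes. Muscle markers summed to at most 13.9 CPM in any library, and 7 of the 14 were tested. Erythrocyte markers had low counts, with sums of 0.934 to 36.2 CPM per library and 1 count of *Alas2* in its lowest library. Of the 5 genes, 3 stood at an unadjusted p under 0.05 and 2 had no overlap. Their median interaction was 1.74, and 1.22 to 2.71 when single mice were left out. Interferon-stimulated genes had 0.01, which was -0.52 without mouse WT-173 and 0.25 without mouse KO-169. Lymphoid and mast cell markers had a median of 0.65, immediate early genes 0.08 (-0.08 to 0.17 under single omissions) and heat shock genes -0.13. The part of these cells in the gene values above was not tested.

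At 2 wpc the same interaction could be formed in other mice, 9 with both nerves. In *Lepr*-cKO mouse SLRKO2wpc126 the 7 tested muscle markers summed to 27690 CPM in the injured nerve and 24.1 CPM in the healthy nerve, a mean paired difference of 9.85 (log2), against at most 22.6 CPM in the injured nerve of any other mouse at 2 wpc. Between the times, 0 of 18319 genes were called for a different interaction with edgeR (0%), 2000 stood at an unadjusted p under 0.05, and the count was again 0 without *Lepr*-cKO mouse SLRKO2wpc126. The list medians at 2 wpc were -0.02 for cholesterol synthesis, -0.07 for fatty acid and sphingolipid synthesis and -0.25 for myelin proteins. These stood against 0.78, 0.53 and 0.72 at 4 wpc. For mitochondrially encoded OxPhos subunits the median was 0.61 at 2 wpc (0.93 without mouse SLRKO2wpc126) and -1.62 at 4 wpc, and for cytosolic ribosomal proteins 0.02 and -0.47. *Hsd17b7* had an interaction of -0.02 ± 0.23 at 2 wpc, and the 2 times differed by 1.23 ± 0.34 (edgeR adjusted p = 0.269).

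**Figure D5:**
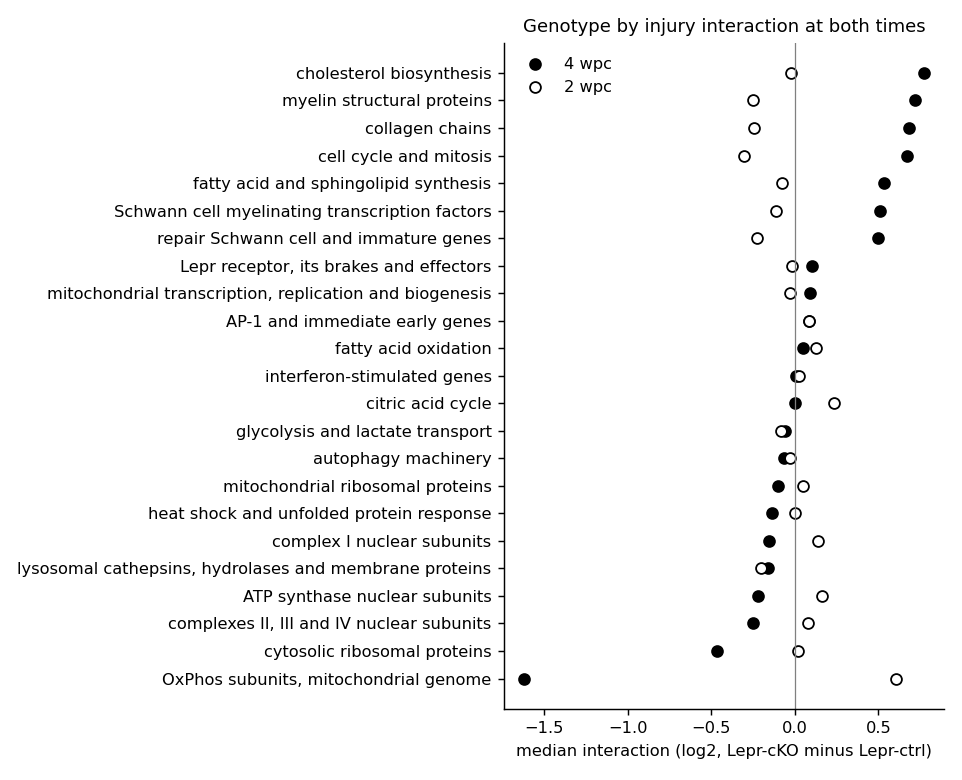
Median interaction (log2, *Lepr*-cKO minus *Lepr*-ctrl) over the tested genes of each list at 4 wpc (filled) and 2 wpc (open), which are different mice, without the cell type marker lists. Cholesterol synthesis lies at 0.78 at 4 wpc and -0.02 at 2 wpc, and mitochondrially encoded OxPhos subunits at -1.62 and 0.61.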

How the data were processed

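The files hold raw read counts per gene for 55573 genes, as the authors deposited them, neither normalized nor filtered. Reads of 50 bases were aligned to GRCm38 with up to 2 mismatches. The submitters' processing notes name bcl2fastq 2.20.0.422, STAR 2.5 and featureCounts 1.5.0-p1. Use of strand and handling of reads with several matches are not given in the sources used here, which leaves genes that overlap or have copies uncertain. For their own calls the authors used DESeq2, with an adjusted p under 0.05 and a log2 fold change beyond 1 in size.

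Here counts were tested in R 4.3.3 with edgeR 4.0.16 (TMM, expression filter on groups, minimum 10 counts, minimum total 15, quasi-likelihood test, Benjamini-Hochberg adjustment over all tested genes), with the mouse as a block and an injury term in each genotype. The same thresholds were used for calls. Log2 CPM used TMM factors and a prior count of 2. Single genes were also compared with two-sided exact permutation tests over the 70 arrangements of 4 against 4 mice, whose smallest p is 0.0286. Lists were described by counts and medians and were not tested. Code was tested on simulated data.

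Nerves were paired by the animal number in the sample titles. Over 5000 genes, the deviations of the nerves of a mouse from their group means correlated by -0.13 to 0.27. Total counts per library were 10905806 to 43521795, and low counts limit the precision of weak genes.

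The mice, genes and lists were chosen with earlier results of these data known. Named genes were *Lepr*, the genes the study names, all called genes, up to 12 per direction by the ranking given in the text, and up to 2 members per list with the smallest unadjusted p (all measured members for mitochondrially encoded OxPhos). Where other list members are named, the remaining members of that list are given with them or they were chosen after their values were seen. Some genes that this rule names are not reported here, and they were kept in the fits and in the counts and medians of lists. Gene names and positions came from GENCODE mouse release 21. Alternatives were other fits and tools (limma 3.58.1, DESeq2 1.42.0), normalizations and filters, a term for sex, a prior count of 0.5, the median over list members, and each mouse left out in turn. Input was parsed with jsonlite 2.0.0 and version 1.17.8 of data.table.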

Additional observations from a re-analysis of the deposited data

Results flagged for a closer look

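The response of *Hsd17b7* differed between the genotypes by a test of the difference itself (interaction 1.21 on the log2 scale, edgeR adjusted p = 0.0359). This call depended on the fit and on single mice, with an edgeR adjusted p of 0.0857 without the mouse as a block. *Suclg2* was above 0 in all 4 *Lepr*-ctrl and below 0 in all 4 *Lepr*-cKO mice, with a difference of the mean paired differences of -0.52. In the edgeR fit this difference did not pass (adjusted p = 0.233).

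Single mice stood far from the other 3 of their group by Dixon's criterion in 12 of 228 values tested, where chance gives about 5%. *Lepr*-ctrl mouse WT-178 did so for cholesterol synthesis (-2.96), fatty acid and sphingolipid synthesis (-1.49), cell cycle (0.13), mitochondrial transcription and biogenesis (0.02) and *Top2a* (-0.28). *Lepr*-ctrl mouse WT-171 did so for *Ctsl* (2.81) and *Unc13c* (-0.43), and *Lepr*-ctrl mouse WT-173 for interferon-stimulated genes (-1.40). In *Lepr*-cKO, mouse KO-175 did so for adipocyte markers (-3.78) and *Adipoq* (-4.99), the gene of the adipocyte hormone adiponectin. All these are paired differences in log2 CPM. The share of counts from messenger RNA of the mitochondrial genome stood apart in the healthy nerve of *Lepr*-cKO mouse KO-177 (3.61%) and in the injured nerve of *Lepr*-ctrl mouse WT-173 (15%).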

How the results depend on the processing

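The interaction of *Hsd17b7* was above 0 under each alternative run, but the number of calls depended on the fit. Without the replicate block, that is, without pairing the nerves of a mouse, 0 genes were called in 16 libraries (*Hsd17b7* adjusted p = 0.0857 with edgeR, 2020 genes at an unadjusted p under 0.05). Calls in the higher direction were also 0 in 34 libraries of both times with the block, in 39 libraries without it, and with limma at prior counts of 2 and 0.5. They were 26 higher and 56 lower with DESeq2 and 104 and 232 with no filter on low counts. DESeq2 size factors, mitochondrially encoded genes left out, at least 10 counts in every library and a term for sex left 1 call. Leaving out single mice gave 0 to 82 higher and 0 to 133 lower calls, and 1597 to 3537 genes at an unadjusted p under 0.05, the highest values being without *Lepr*-cKO mouse KO-177. The causes were not tested.

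Leaving out single mice gave medians of 0.094 to 1.16 for lymphoid and mast cell markers, -0.22 to 0.014 for glycolysis and 0.38 to 0.73 for myelin transcription factors. *Stat3* turned to -0.046 without *Lepr*-ctrl mouse WT-173 and stayed within -0.046 to 0.15 over all single omissions. Without *Lepr*-cKO mouse KO-169 *Jun* turned to -0.083 and *Shh* to -0.084, with ranges of -0.083 to 0.28 and -0.084 to 0.59 over the omissions, and *Stat3* also fell just under 0. With the median over genes in place of the mean, the genotypes differed by -0.11 for the citric acid cycle, -0.17 for immediate early genes, -0.013 for heat shock genes and -0.54 for muscle markers.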

Other observations

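Among genes of other lists taken by the smallest unadjusted p, the perineurial keratin gene *Krt19* had paired differences of 4.78, 5.31, 7.0 and 6.21 in *Lepr*-ctrl against 3.68, 5.06, 3.55 and -0.27 in *Lepr*-cKO, and the fatty acid binding protein gene *Fabp4*, of adipocytes and vessels, 7.51, 8.76, 6.77 and 6.19 against 6.30, 0.96, 4.44 and 3.88. For *Fabp4* the genotypes differed by 2.77 in healthy and -0.64 in injured nerves (log2, *Lepr*-cKO minus *Lepr*-ctrl). Healthy *Lepr*-ctrl nerves were near the floor, at 0.35 to 1.29 CPM, against 0.57 to 23.2 CPM in *Lepr*-cKO. The injured nerves overlapped, at 82.6 to 191 and 45.3 to 153 CPM. *Ifit2*, an interferon-stimulated gene, had an interaction of 0.38 ± 0.19, and *Trib3*, a stress-induced pseudokinase, of -0.89 ± 0.29. *Gpnmb*, a glycoprotein of lipid-laden macrophages, had 3.43, 5.53, 3.71 and 4.15 in *Lepr*-ctrl against 3.59, 2.94, 2.98 and 3.86 in *Lepr*-cKO, and *Npc2*, which carries cholesterol out of lysosomes, 0.87, 1.11, 0.49 and 0.86 against 0.24, 0.37, 0.22 and 0.75. The edgeR adjusted p for *Gpnmb* and *Npc2* were 0.388 and 0.325.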
